A study of Mus musculus with 12 samples.

Results

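The genes described here encode 10 enzymes that lead from tryptophan to NAD or that recycle, methylate or break down NAD and its precursor nicotinamide. They are Tdo2, Kmo, Kynu, Haao, Acmsd, Qprt, Nampt, Naprt, Nnmt and Cd38, chosen by gene name from the 57180 genes of the deposited count and TPM tables. All 10 had enough reads to be tested. RNA was measured in livers of 12 mice, 3 of each sex and genotype, to ask how the liver of a treated Cockayne syndrome mouse at its humane endpoint differs from that of an age-matched littermate. Every mouse was Csa-/- and had received AAV9-CSA, a vector with a human CSA cDNA behind the ubiquitous chicken beta-actin promoter, by injection into the cerebral ventricles as a neonate. The groups were KO females, KO males, Het females and Het males. KO mice are the CX mice of the study, described in its results as Csa-/- Xpa-/- but written elsewhere in the sources as Xpa+/+, and Het mice are Csa-/- Xpa+/-. No liver without the vector and no liver with intact Csa was part of these comparisons, and NAD, tryptophan and their metabolites were not measured.

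The liver is the main site at which dietary tryptophan is broken down through kynurenine, and part of that flow is used to build NAD, the coenzyme that carries electrons and that sirtuins, PARPs and Cd38 consume. After Haao, the intermediate either closes by itself to quinolinic acid, which Qprt joins to the NAD pathway, or is taken by Acmsd towards picolinic acid and complete oxidation. Nampt and Naprt rebuild NAD from nicotinamide and nicotinic acid, whereas Nnmt methylates nicotinamide and so removes it from recycling.

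Xpa was checked first because of the conflicting genotypes. It lay between 3.10 and 3.74 CPM (counts per 1000000 of the scaled library, single livers named by group and mouse number) in Het females, between 5.57 and 6.34 CPM in Het males and between 0.992 and 1.83 CPM in KO livers, so no KO liver reached a Het liver. Ercc8, the gene name of Csa, read 5.10 to 8.68 CPM in Het and 14.8 to 34 CPM in KO livers, and it was called higher in KO (log2 fold change 1.62, adjusted p = 0.000156). All these mice were labelled Csa-/- and had received a human CSA cDNA. Counts per gene do not show whether these reads lie inside the deleted part of mouse Csa or whether any come from the vector. They therefore do not check that label, and their source was not tested. Libraries held 30044812 to 43634073 counts. Livers of a group differed by more than sampling noise, and no library copied another. The 8 hepatocyte markers were read in every library, summing to 73120 to 101770 CPM in Het and 95662 to 164398 CPM in KO livers. Of these 8 markers, 2 were called higher in KO and 2 lower, where 12.2% and 10.2% of all tested genes were.

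Over both sexes, Acmsd was higher in KO livers, and Haao and Qprt were lower. The other 7 genes, Tdo2, Kmo, Kynu, Nampt, Naprt, Nnmt and Cd38, did not pass the test. Thus 1 of 10 genes was called higher, where 12.2% of the 19350 tested genes were, and 2 of 10 were called lower, where 10.2% were. These shares are near those of all genes, so nothing is read from the count of genes called. The median log2 fold change was -0.05 over the 10 genes and 0.02 over all tested genes. A gene was called at a Benjamini-Hochberg adjusted p under 0.05 over all tested genes in edgeR's quasi-likelihood F test. Acmsd livers of the genotypes did not overlap, nor did those of Haao, which makes 2 of 10 genes, where 9.35% of all tested genes showed no overlap.

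**Figure D1:**
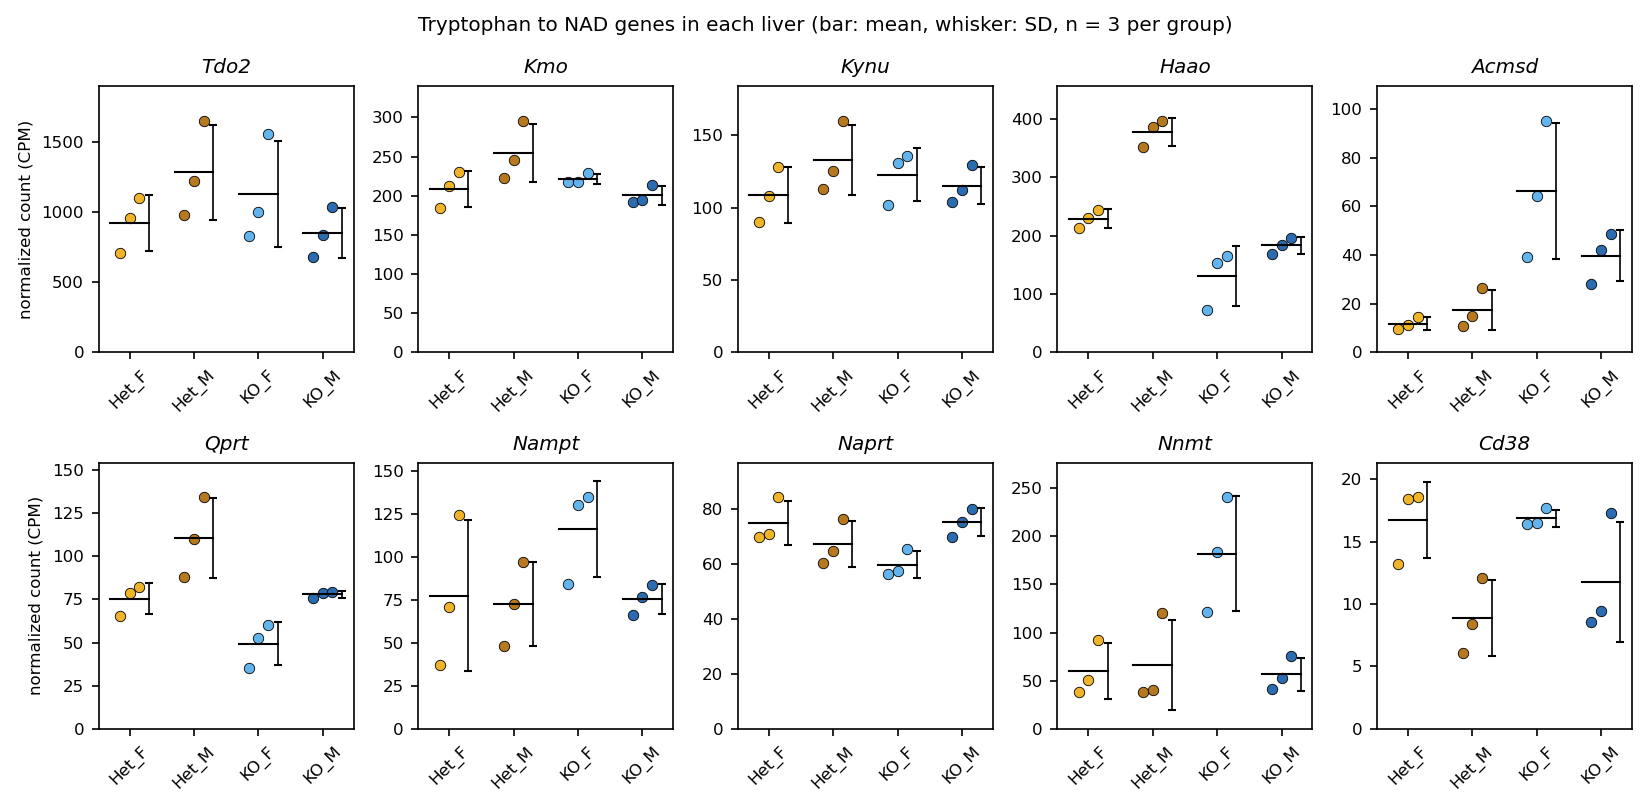
Normalized counts (CPM, linear axis from 0) of the 10 genes in each of the 12 livers, one panel per gene, with Het_F and Het_M in yellow and brown and KO_F and KO_M in light and dark blue. Bars are group means and whiskers SD (n = 3 mice). All 6 KO livers lay above all Het livers for Acmsd and below them for Haao, and KO females lay above Het females for Nnmt.

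The promoters of Haao and Qprt are shown because these genes, whose enzymes act before and after quinolinic acid on the way to NAD, were both lower over both sexes. Each runs from 250 bases before to 30 bases after the start of the canonical GENCODE transcript in GRCm39, on the strand of the gene. Haao lies on the minus strand at chr17:84154275-84154554 and Qprt on the minus strand at chr7:126721369-126721648. Capitals mark a match to a searched motif, which of this pair occurs only in Haao.
Haao: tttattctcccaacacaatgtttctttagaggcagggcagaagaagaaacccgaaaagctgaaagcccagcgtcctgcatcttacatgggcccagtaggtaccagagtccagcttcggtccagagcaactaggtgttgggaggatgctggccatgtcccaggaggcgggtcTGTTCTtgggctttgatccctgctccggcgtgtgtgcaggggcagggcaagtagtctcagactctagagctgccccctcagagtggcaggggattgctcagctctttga
Qprt: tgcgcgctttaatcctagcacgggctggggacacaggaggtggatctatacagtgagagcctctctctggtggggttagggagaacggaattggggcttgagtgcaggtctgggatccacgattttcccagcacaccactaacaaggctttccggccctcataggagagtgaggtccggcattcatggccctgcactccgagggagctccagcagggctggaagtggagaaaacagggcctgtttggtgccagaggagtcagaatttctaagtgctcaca
Motifs were searched on both strands in such windows of 9 of the genes (not Acmsd) and of 14323 tested protein-coding genes. The glucocorticoid receptor half-site AGAACA, read as TGTTCT on the other strand, occurred in Tdo2, Kmo, Haao and Nnmt, 4 of 9 genes, and in 13% of all windows. In Haao it lay at bases -79 to -74 from the start. The AP-1 motif TGANTCA occurred in Kynu and Naprt (5.37% of all windows), and the STAT motif TTCNNNGAA occurred in Nnmt alone among the 9 (7.38% of all). None of the 9 windows held the CRE/ATF motif TGACGTCA (2.82% of all), the E-box CACGTG (8.9%), the HNF4 motif CAAAGTCCA (0.482%) or the HNF1 motif GTTAATNAT (0.691%). Matches within a promoter did not overlap each other. A match describes letters in the window only.

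Levels of different genes were compared as TPM, which accounts for transcript length. In Het livers Tdo2 had the highest level, 456 ± 96.0 TPM (SD, n = 6), followed by Haao at 193 ± 39.4 TPM, with no overlap between their livers. Kmo (67.7 ± 6.79 TPM), Nnmt (55.7 ± 28.8) and Kynu (48.8 ± 8.32) followed, and their ranges overlapped. Qprt (35.8 ± 7.22 TPM) and Naprt (31.4 ± 5.81) overlapped with each other, and Nampt (14.9 ± 6.89) reached into the range of Naprt. Acmsd (4.03 ± 1.44 TPM) and Cd38 (3.68 ± 1.69) were the lowest, overlapped with each other and lay below every other gene of the 10. In KO livers the order was Tdo2, Nnmt, Haao, Kmo, Kynu, Naprt, Qprt, Nampt, Acmsd and Cd38, with Acmsd at 15.2 ± 7.81 TPM and every KO value of Acmsd above every value of Cd38. Nnmt (105 ± 74.6 TPM) and Haao (101 ± 26.3 TPM) overlapped in these livers. The RNAs Rn7s1 and Rn7s2 took between 44.5% and 55.7% of all TPM, which lowers the TPM of other genes but leaves ratios within a liver as they are.

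Tdo2 (ENSMUSG00000028011.17, chr3:81864248-81883509, minus strand) encodes tryptophan 2,3-dioxygenase, the enzyme that opens the tryptophan ring at the first step. It had 712, 961 and 1102 CPM in Het females, 978, 1223 and 1654 CPM in Het males, 830, 1006 and 1557 CPM in KO females and 679, 836 and 1039 CPM in KO males. KO and Het livers overlapped in each sex. Over both sexes KO differed from Het by a log2 fold change of -0.15 (95% interval -0.57 to 0.27, adjusted p = 0.611). It was 0.29 in females (interval -0.31 to 0.89) and -0.59 in males (interval -1.19 to 0.01), and neither passed the test. Tdo2 overlaps Ctso, a protease gene on the opposite strand, over 56% of the bases of its transcript, so that a value of Tdo2 rests on how strand was used in counting, which the sources used here do not state. Ctso held 1193 to 2323 counts, and Tdo2 held at most 50248. The genes whose levels moved most like Tdo2 over the 12 livers were 4732465J04Rik, Itpr1 and Tle3, with a root mean square difference of centred log2 CPM of 0.157, 0.204 and 0.205, and none of them was called between genotypes.

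Kmo (ENSMUSG00000039783.16, chr1:175447947-175489683, plus strand) encodes kynurenine 3-monooxygenase, which hydroxylates kynurenine. Its level was 185, 212 and 231 CPM in Het females, 223, 246 and 296 CPM in Het males, 217, 218 and 229 CPM in KO females and 192, 195 and 214 CPM in KO males. The 3 KO males lay below the 3 Het males, whereas KO females lay within the range of Het females. The log2 fold change was -0.13 over both sexes (interval -0.34 to 0.08, adjusted p = 0.351) and -0.35 in males (interval -0.64 to -0.05, adjusted p = 0.146). The gene overlaps Fh1 on the opposite strand over 5259 bases, and Fh1 held 3267 to 13024 counts.

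Kynu (ENSMUSG00000026866.18, chr2:43445309-43572734, plus strand) encodes kynureninase, which releases alanine from the kynurenines and leaves, from hydroxylated kynurenine, the hydroxyanthranilate that Haao uses. It had 90.1, 108.03 and 128 CPM in Het females, 113, 125.2 and 160 CPM in Het males, 102, 131 and 135.9 CPM in KO females and 104, 112.4 and 129 CPM in KO males. All KO livers lay within the range of the Het livers. Its log2 fold change was -0.01 over both sexes (interval -0.29 to 0.26), 0.17 in females (interval -0.21 to 0.56) and -0.20 in males (interval -0.59 to 0.18).

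Haao (ENSMUSG00000000673.10, chr17:84138583-84155392, minus strand) encodes 3-hydroxyanthranilate 3,4-dioxygenase, which makes the intermediate at the branch point. It had 213, 230 and 245 CPM in Het females and 352, 386 and 397 CPM in Het males. KO females had 72.3, 154 and 166 CPM, and KO males had 169, 184 and 197 CPM. Every KO liver lay below every Het liver, and Het males lay above Het females. Haao was lower in KO by 1.90-fold over both sexes (log2 fold change -0.93, SE 0.170, adjusted p = 0.00327). In males it fell by 1.04 on the log2 scale (adjusted p = 0.0238), and in females by 0.81 (adjusted p = 0.0496). KO_F_108 stood apart with 72.3 CPM, and leaving it out gave a log2 fold change over both sexes of -0.79 (adjusted p = 0.000187). The call in females was lost without any 1 of 10 mice and under 6 other settings, while the log2 fold change stayed between -1.03 and -0.54. The call in males was lost without any 1 of the 6 males. Haao overlaps Mta3 on the opposite strand over 8514 bases, with 194 to 509 counts, and Gm56902, with at most 9 counts.

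Qprt (ENSMUSG00000030674.6, chr7:126704596-126721398, minus strand) encodes quinolinate phosphoribosyltransferase, which feeds quinolinic acid into NAD synthesis. It had 65.3, 78.6 and 82.1 CPM in Het females, 87.7, 110 and 134 CPM in Het males, 35.4, 52.5 and 59.9 CPM in KO females and 75.5, 78.9 and 79.0 CPM in KO males. Within each sex the KO livers lay below all Het livers, but KO males overlapped with Het females. Qprt was 1.47-fold lower in KO over both sexes (log2 fold change -0.56, SE 0.138, adjusted p = 0.0145). The log2 fold change was -0.61 in females (interval -1.04 to -0.19, adjusted p = 0.0638) and -0.51 in males (interval -0.93 to -0.08, adjusted p = 0.141). Levels of Qprt were nearest to those of Qdpr, Cyb5r3 and Ces2e, with a root mean square difference of 0.177, 0.181 and 0.182 over the 12 livers. KO_F_108 had the lowest Qprt level of all livers, and leaving it out gave -0.48 (adjusted p = 0.0149).

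Acmsd (ENSMUSG00000026348.8, chr1:127657143-127695715, plus strand) encodes aminocarboxymuconate semialdehyde decarboxylase, which draws the same intermediate away from quinolinic acid. It had 9.44, 11.2 and 14.6 CPM in Het females and 10.8, 14.97 and 26.5 CPM in Het males. KO females had 39.4, 64.4 and 95.1 CPM, and KO males had 28.2, 42.3 and 48.7 CPM. Every KO liver lay above every Het liver, and KO_F_108 was the highest. Acmsd was 3.58-fold higher in KO over both sexes (log2 fold change 1.84, SE 0.270, adjusted p = 0.00127). It was 5.61-fold higher in females (log2 fold change 2.49, interval 1.63 to 3.35, adjusted p = 0.00553). In males the log2 fold change was 1.19 (interval 0.36 to 2.02, adjusted p = 0.0836). Leaving out each of the 12 mice gave 0.93 to 1.61 (adjusted p = 0.0443 to 0.236), and 1 of these fits passed. That fit left out Het_M_119, the highest Het liver for Acmsd, whose 26.5 CPM stood apart (log2 fold change 1.61, adjusted p = 0.0443). Without KO_F_108 the log2 fold change over both sexes was 1.65 (adjusted p = 0.00257). Acmsd overlaps 2900009J06Rik and Gm35993 on the opposite strand, which held at most 18 and 50 counts.

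The calls of Acmsd, Haao and Qprt over both sexes held in all 26 alternative analyses, including without both of these livers, where the log2 fold changes were 1.87, -0.79 and -0.40.

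**Figure D2:**
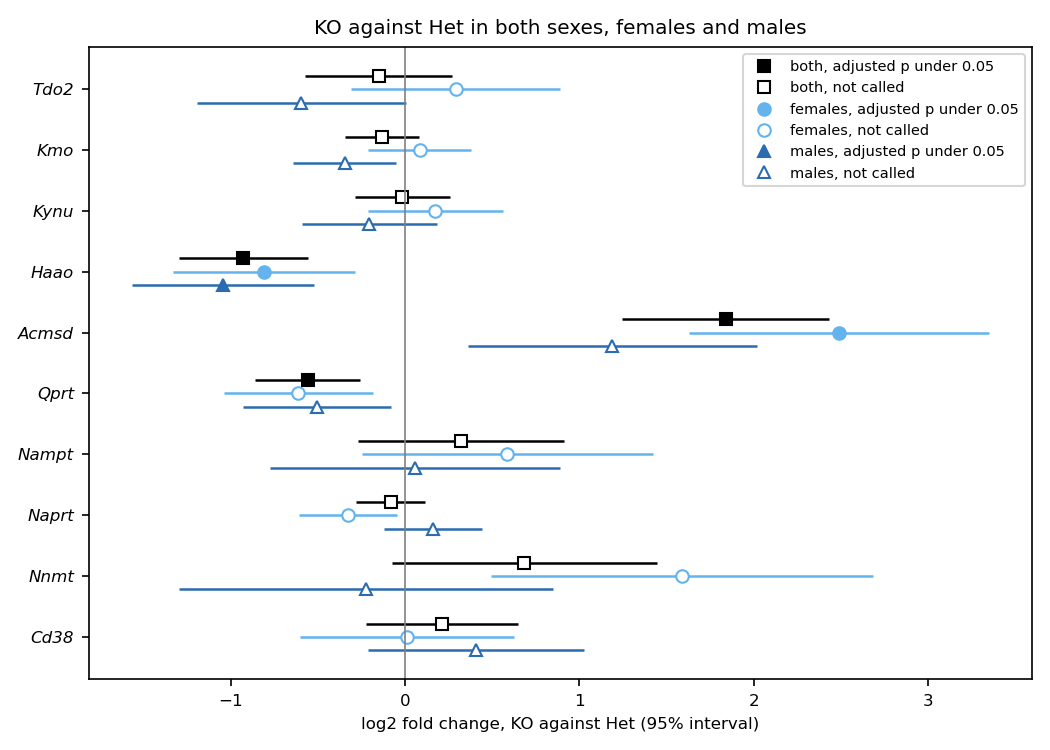
Log2 fold change of KO against Het (horizontal axis) with its 95% interval for each of the 10 genes over both sexes (black squares), in females (light blue circles) and in males (dark blue triangles), filled where the adjusted p is under 0.05. Acmsd lies at 1.84 over both sexes, and Haao at -0.93 and Qprt at -0.56 on the other side of 0.

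The balance at the branch point was described as the ratio of Acmsd to Qprt in TPM within each liver. In Het livers Qprt exceeded Acmsd by 7.05- to 11.3-fold, with a log2 ratio of -3.20 ± 0.266 (SD, n = 6). In KO livers the log2 ratio was -0.80 ± 0.993, and no KO liver reached into the Het range. The KO males had log2 ratios of -1.95, -1.31 and -1.20, the KO females had -0.90, -0.34 and 0.92, and in KO_F_108 Acmsd exceeded Qprt by 1.90-fold. These ratios combine genes already shown to differ and carry no test of their own.

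**Figure D3:**
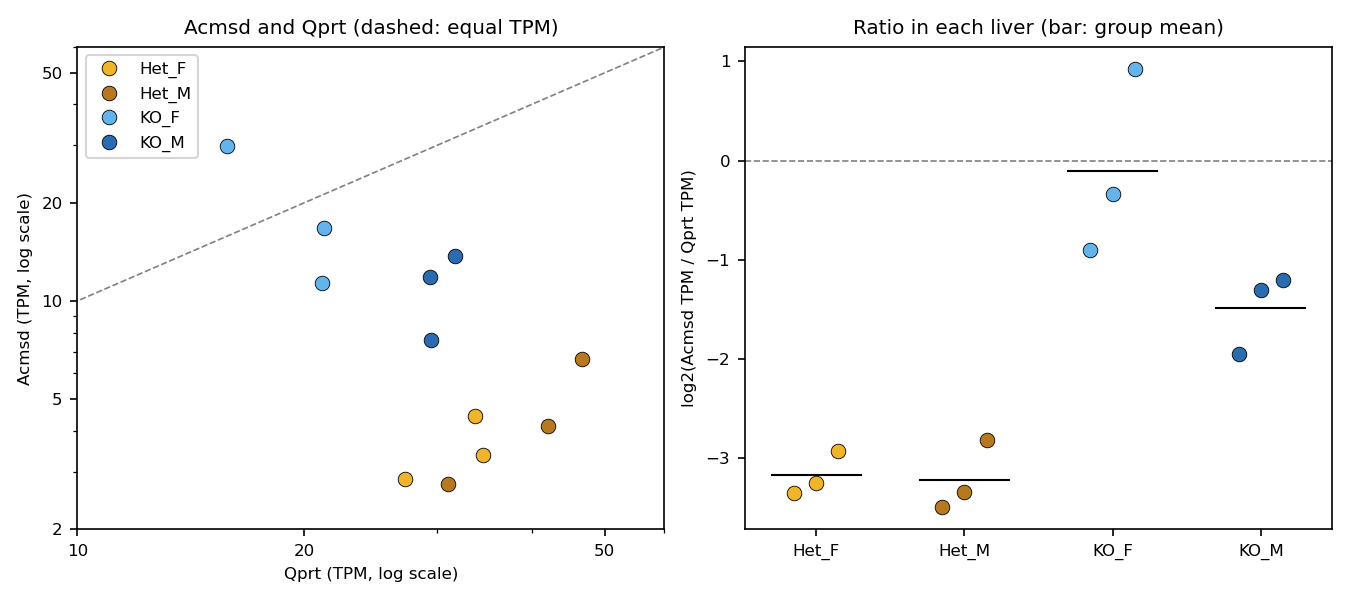
Left, Acmsd against Qprt in TPM (both axes logarithmic) for the 12 livers, with equal levels on the dashed line. Right, the log2 ratio of Acmsd to Qprt in each liver by group, with group means as bars. Het livers lie between -3.50 and -2.82, KO livers between -1.95 and 0.92, and 1 KO female lies above the line of equal levels.

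Nampt (ENSMUSG00000020572.9, chr12:32869544-32903368, plus strand) encodes the enzyme that sets the pace of NAD recycling from nicotinamide. It had 37.4, 70.9 and 124.7 CPM in Het females, 48.4, 72.8 and 97.3 CPM in Het males, 84.5, 130 and 135 CPM in KO females and 66.6, 76.9 and 83.9 CPM in KO males. Het livers spread over more than the whole range of KO males, and the groups overlapped in both sexes. It differed by 0.32 on the log2 scale over both sexes (interval -0.27 to 0.91, adjusted p = 0.419). That value was 0.57 without Het_F_111 and 0.15 without Het_F_115, and in females 1.09 and 0.24, and none of these passed the test. The genes nearest to it over the livers were Sntg1, Gm48501 and 1700101I11Rik, at root mean square differences of 0.194, 0.266 and 0.273, of which Gm48501 and 1700101I11Rik had mean levels under 1 CPM.

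Naprt (ENSMUSG00000022574.8, chr15:75762805-75766413, minus strand) encodes nicotinate phosphoribosyltransferase, which uses nicotinic acid. Het females had 69.9, 71.1 and 84.4 CPM, above the 56.5, 57.4 and 65.7 CPM of KO females. Het males had 60.5, 64.7 and 76.5 CPM and KO males 70.0, 75.5 and 80.2 CPM, and these overlapped. Fold changes on the log2 scale were -0.08 over both sexes (interval -0.28 to 0.12), -0.33 in females (adjusted p = 0.117) and 0.16 in males (adjusted p = 0.485). Naprt shares 277 transcript bases with Eef1d on the same strand, so reads there could be assigned to either gene.

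Nnmt (ENSMUSG00000032271.14, chr9:48448913-48518959, minus strand) encodes nicotinamide N-methyltransferase. It had 37.9, 50.5 and 92.9 CPM in Het females and 121, 184 and 241 CPM in KO females, which did not overlap. It had 38.7, 40.6 and 120 CPM in Het males and 41.9, 53.1 and 75.6 CPM in KO males, and Het_M_119 was the highest of these. On the log2 scale KO exceeded Het by 1.59 in females (interval 0.49 to 2.68, adjusted p = 0.0638), with values of -0.22 in males (interval -1.29 to 0.85, adjusted p = 0.824) and 0.68 over both sexes (interval -0.08 to 1.44, adjusted p = 0.180). Leaving out each mouse gave 0.54 to 1.04 over both sexes (adjusted p = 0.0249 to 0.342). Only the fit without Het_M_119 passed the test (1.04, adjusted p = 0.0249), 1 of 26 alternative analyses. Pfkfb2, Pptc7 and Slc22a3 had levels nearest to those of Nnmt, at root mean square differences of 0.263, 0.279 and 0.297, and none of these was called between genotypes.

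Cd38 (ENSMUSG00000029084.6, chr5:44025875-44069717, plus strand) encodes a cell surface enzyme that hydrolyses NAD and is abundant on immune cells. It had 13.2, 18.4 and 18.5 CPM in Het females, 6.05, 8.41 and 12.1 CPM in Het males, 16.4, 16.5 and 17.7 CPM in KO females and 8.59, 9.42 and 17.3 CPM in KO males. The genotypes overlapped in both sexes. Cd38 differed by 0.21 on the log2 scale over both sexes (interval -0.22 to 0.65, adjusted p = 0.481). In whole liver, fewer cells of a type and less RNA per cell cannot be told apart. Markers of Kupffer cells summed to 92.1 to 255 CPM in Het and 135 to 422 CPM in KO livers, with 3 of 7 called higher, and those of monocytes and recruited macrophages to 17.4 to 71.9 and 33.8 to 94.4 CPM, also with 3 of 7 called higher. Of 4 tested neutrophil markers 1 was called higher, and of the 6 T and NK cell, 6 B and plasma cell and 5 cholangiocyte markers none was called by edgeR. Sinusoidal endothelial markers summed to 233 to 424 CPM in Het and 170 to 293 CPM in KO livers with 4 of 6 called lower, and stellate cell markers to 243 to 500 and 141 to 270 CPM with 3 of 7 called lower. Their part in the values of the 10 genes was not tested.

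Within females, Acmsd was called higher and Haao lower, so 1 of 10 genes was called in each direction, beside 5.94% and 5.10% of all tested genes. Within males, Haao was called lower and no gene was called higher, beside 2.98% and 4.47% of all genes. DESeq2 called 4 of the 10 genes in females and 2 in males, in either direction, where it called 16.3% and 11.6% of all genes. KO and Het livers did not overlap for 5 of 10 genes in females (Acmsd, Nnmt, Haao, Qprt and Naprt), where 30.4% of all genes showed none, and for 4 of 10 in males (Acmsd, Kmo, Haao and Qprt), where 32.1% did.

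The difference between the sexes in the KO effect, the interaction, was tested for each gene. No gene of the 10 was called by edgeR, where 0.0465% of all genes were, and DESeq2 called 0 as well (0.782% of all genes). At an unadjusted p under 0.05 there were 5 of 10 genes, beside 9.28% of all tested genes, and after adjustment their p ranged from 0.480 to 0.533. This count rested on single livers, since it was 0 without Het_F_126 and 0 without Het_M_119, 2 without KO_F_108, KO_M_122 or KO_M_136, and 3 without Het_F_115, Het_M_125 or KO_M_118. It was also 2 with both limma fits on TPM and 3 with library size only. The 5 genes of the main fit were Tdo2 (-0.88 as log2, males minus females), Kmo (-0.43), Acmsd (-1.30), Naprt (0.49) and Nnmt (-1.81). The interval was -2.46 to -0.14 for Acmsd and -3.34 to -0.29 for Nnmt. A KO effect called in females and not in males was therefore not shown to differ between them. For Haao and Qprt, the interaction was -0.23 (interval -0.97 to 0.50) and 0.11 (interval -0.49 to 0.71).

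Males and females were also compared over both genotypes. None of the 10 genes was called by edgeR (1.02% of all genes were), 4 had an unadjusted p under 0.05 (13.8% of all did), and DESeq2 called 3 (3.73% of all genes). Qprt had the smallest p, with a log2 fold change of males against females of 0.61 (interval 0.30 to 0.91, adjusted p = 0.0675). Haao had 0.60 (adjusted p = 0.134), Cd38 had -0.72 (adjusted p = 0.135) and Nnmt had -0.77 (adjusted p = 0.356).

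The remaining genes of tryptophan and NAD metabolism were looked at in 6 lists of 57 genes, of which 54 were tested. Over both sexes 8 were called higher, 8 lower and 38 neither, shares near the 12.2% and 10.2% of all tested genes, so the counts of these lists are given as a description only. Among the other kynurenine pathway genes, 7 of 8 were tested, and Ido1, the dioxygenase of immune cells, held at most 4 counts. Kyat3, a kynurenine aminotransferase, was higher (log2 fold change 0.68, adjusted p = 0.0341). Aldh8a1 (-0.36, adjusted p = 0.0187) and Gcdh (-0.35, adjusted p = 0.0211), which serve the oxidation route beyond Acmsd, were lower. The median log2 fold change of this list was -0.31.

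Of 6 tested other genes of NAD synthesis, Nmnat1, which forms NAD in the nucleus, was lower (13.1 ± 1.03 CPM in Het, 7.94 ± 1.56 in KO, SD, n = 6, log2 fold change -0.72, adjusted p = 0.00444), with every KO liver below every Het liver. Pnp, which releases nicotinamide from its riboside, was higher (0.36, adjusted p = 0.0123), and Nmnat2 was at 0.65 (adjusted p = 0.119). Among 4 genes for NAD kinases, mitochondrial NAD transport and transhydrogenase, the mitochondrial kinase Nadk2 was lower (-0.56, adjusted p = 0.0115). Nnt (-0.50, adjusted p = 0.229) and Nadk (-0.12, adjusted p = 0.445) were not called.

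Of 24 NAD-consuming enzymes, 4 were called higher and 1 lower, and the list median was 0.09. Sarm1, a NAD hydrolase known from axon degeneration, rose by 1.60 on the log2 scale (adjusted p = 0.00154) from a low level, 0.326 ± 0.0736 CPM in Het and 1.11 ± 0.346 CPM in KO livers (SD, n = 6), with at most 53 counts in a liver. Tiparp, an ADP-ribosyltransferase induced by the aryl hydrocarbon receptor, rose by 1.46 (adjusted p = 0.00827), from 7.36 to 16.1 CPM in Het livers to between 9.66 and 73.9 CPM in KO livers. Parp12 (0.44, adjusted p = 0.00800) and Parp16 (0.85, adjusted p = 0.0202), both mono-ADP-ribosyltransferases, were also higher. By sex, Tiparp was at 2.14 in females (adjusted p = 0.0171) and 0.78 in males (adjusted p = 0.304). Parp12 was at 0.16 in females (adjusted p = 0.471) and 0.72 in males (adjusted p = 0.0105). The interaction was called for neither Tiparp nor Parp12. Sirt7, a nuclear sirtuin, was lower (-0.35, adjusted p = 0.0149).

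Of 6 genes listed for the breakdown of nicotinamide and of NAD, 3 were lower and none was higher. Aox3, an aldehyde oxidase that acts on methylated nicotinamide, had 190 to 699 CPM in Het and 42.8 to 289 CPM in KO livers, a log2 fold change of -1.98 (adjusted p = 0.00786). Aox1 was at -0.74 (adjusted p = 0.0458) and Nudt12, a peroxisomal NADH hydrolase, at -0.47 (adjusted p = 0.00999). For tryptophan transport and other tryptophan enzymes, 7 of 8 genes were tested, and the amino acid transporter genes Slc7a8 (0.66, adjusted p = 0.0357) and Slc3a2 (0.28, adjusted p = 0.0405) were higher, while Maoa was at 0.27 (adjusted p = 0.135). Some of these genes share annotated ground with neighbours, Sarm1 with Slc46a1, Nmnat1 with Tmem274 and Lzic and Gcdh with Syce2 and Klf1 on the opposite strand, and Sirt7 with Mafg and Pnp with Gm49342 on the same strand. Pnp also has a near-identical copy, Pnp2, so its value is uncertain.

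**Figure D4:**
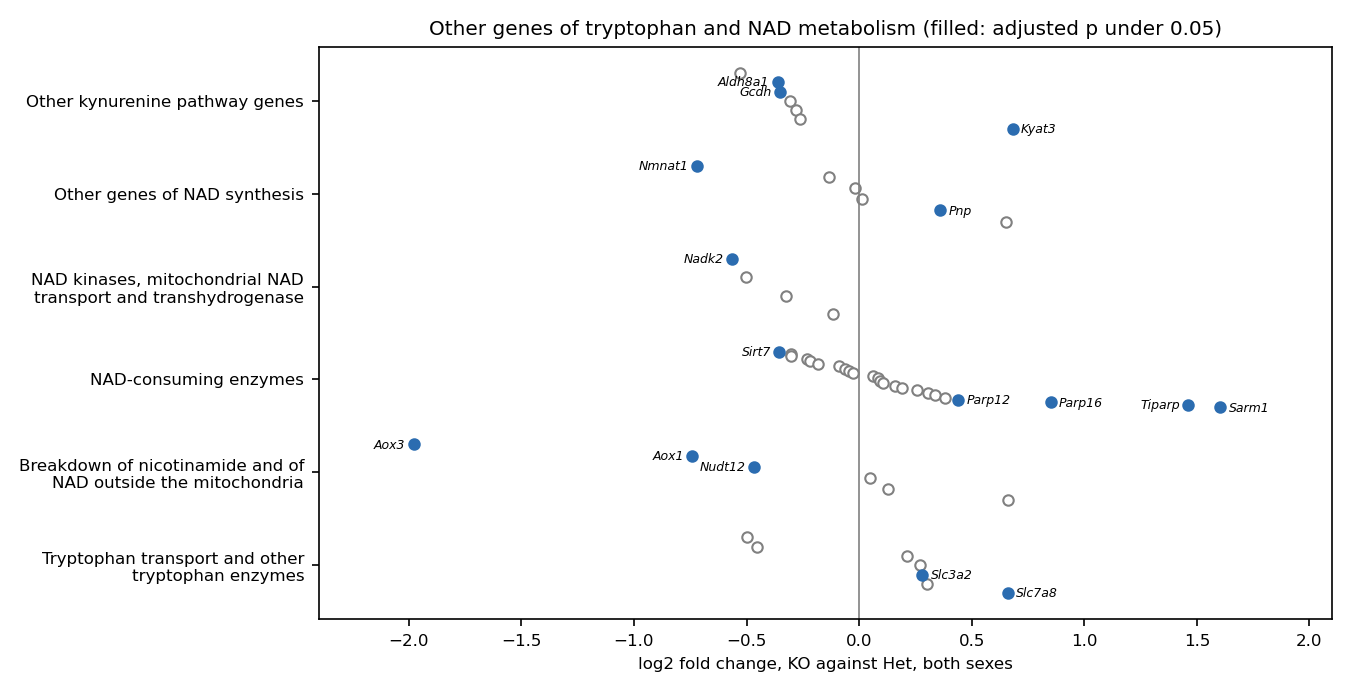
Log2 fold change of KO against Het over both sexes (horizontal axis) for the tested genes of the 6 lists (rows), one point per gene, filled and named where the adjusted p is under 0.05. Filled points lie on both sides of 0, with Aox3 at -1.98 and Sarm1 at 1.60 at the ends.

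Transcription factors and the sirtuin Sirt1, known to act on some of the 10 genes, were examined over both sexes as a list of 11. Stat3, which mediates interleukin-6 signals, had 104 ± 7.42 CPM in Het and 213 ± 48.4 CPM in KO livers (SD, n = 6 each, log2 fold change 1.04, adjusted p = 0.000542). Ppara, the fatty acid receptor whose agonists are known to lower Acmsd, had 206 ± 41.1 CPM in Het and 80.6 ± 29.4 CPM in KO livers (-1.37, adjusted p = 0.00207). Cebpa, a hepatocyte differentiation factor, had 164 to 341 CPM in Het and 77.8 to 163 CPM in KO livers (-1.10, adjusted p = 0.000586). None of these 3 overlapped between genotypes, where 9.35% of all tested genes showed no overlap. They were named because they were called, so the lack of overlap adds no support. The other 8 regulators were not called. Thus 1 of 11 was called higher and 2 lower, beside 12.2% and 10.2% of all tested genes. Atf3, a stress-induced transcription factor, had 1.30, 1.91 and 37.1 CPM in Het females, 0.832, 0.976 and 5.31 CPM in Het males, 7.77 to 9.14 CPM in KO females and 0.899, 6.91 and 12.0 CPM in KO males. A single Het female held the highest Atf3 level, the genotypes overlapped, and the log2 fold change was 0.39 (adjusted p = 0.787). Of 14 clock genes, some of which drive Nampt, Cry2 was higher (1.27, adjusted p = 0.0107), Hlf was lower (-0.87, adjusted p = 0.00664) and Per1 was at 1.27 (adjusted p = 0.0564). Thus 1 of 14 was called in each direction, beside the same shares of all tested genes. By sex, Cry2 was at 2.01 in females (adjusted p = 0.0156) and 0.52 in males (adjusted p = 0.469). Hlf was at -1.16 in females (adjusted p = 0.0198) and -0.59 in males (adjusted p = 0.187). The interaction was called for neither Cry2 nor Hlf. The hour at which each liver was taken was not used here, and the part of these regulators in the values of the 10 genes was not tested.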

How the data were processed

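The authors sequenced stranded, paired libraries of ribosomal RNA-depleted total RNA from 12 livers. The submitters' processing notes name STAR 2.7.9a, Salmon 1.10.1 and GRCm39. The authors deposited estimated counts per gene, the same scaled by library size or transcript length, and TPM. Estimated counts (12.0% not whole) were rounded and tested with edgeR 4.0.16 in R 4.3.3 (TMM scaling, robust quasi-likelihood, prior count 2, a mean for each of the 4 groups) on genes that reached 5 reads (scaled to the median library) in 3 or more livers. p-values were Benjamini-Hochberg adjusted over all 19350 genes. The deposited TPM values served for levels between genes and for limma 3.58.1, and DESeq2 1.42.0 was an alternative. CPM are counts per 1000000 of the TMM-scaled library. Library totals are given with the results, and at 186 to 50248 counts per gene and liver counting error was small beside the spread between mice. Loci, promoters and overlaps came from GENCODE M39 (GRCm39), and transcripts were compared with blastn 2.17.0. Scripts were tested on simulated data.

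Mice were grouped by genotype and sex from the labels. The genes, the lists and the rule for naming genes (the 10 genes, the 3 of smallest p in each list and all called genes of a list with up to 6) were chosen with earlier results of these data known. Replicates are separate mice. Columns of other samples: 0. The promoter of Acmsd is not reported here. The authors' enrichment of gene sets was not repeated.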

Additional observations from a re-analysis of the deposited data

Results flagged for a closer look

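In KO_F_108, Haao had 72.3 CPM, far from the next KO liver at 154 CPM. The gap was 0.655 of the range of the 6 KO livers, above the critical value of Dixon's test (0.625). In Het_M_119, Acmsd had 26.5 CPM where the next Het liver had 14.97 CPM, a gap of 0.676 of the range of the 6 Het livers. The test covered 20 sets of livers (10 genes in each genotype), and chance alone gives about 1 such result in 20. The values without these livers stand beside the results of each gene.

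For Kmo and Naprt, the 3 KO livers of one sex lay on one side of the Het mean of that sex and those of the other sex on the opposite side. The difference in KO effect, males less females, was -0.43 on the log2 scale for Kmo (adjusted p = 0.533, edgeR) and 0.49 for Naprt (adjusted p = 0.480), and neither passed the test.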

How the results depend on the processing

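Over both sexes the count of genes called was 3, and leaving out each mouse gave 3 to 4. In females the count was 2. It was 1 with scaled estimated counts, without a filter, with at least 10 reads in every liver, with the older quasi-likelihood method and with females alone, 3 with library size only, without robust estimation and with both limma fits, and 4 with DESeq2, and leaving out each mouse gave 1 to 2. In males Haao lost its call without any 1 of the 6 males. The count there was 1, or 2 with DESeq2, and 0 to 1 without each mouse. For males against females the count was 0, or 3 with DESeq2, and 0 to 1 without each mouse. The interaction stayed at 0 in every analysis. Without both livers that stood apart (added after seeing the data) the counts were 1 in females and 2 in males. The cause of these changes was not tested. Acmsd, Haao and Qprt kept their call over both sexes in all 26 analyses, with log2 fold changes of 1.61 to 2.04, -1.04 to -0.79 and -0.64 to -0.40. In females Haao kept its call in 10 of 26 and lost it without Het_F_111, Het_F_115, Het_F_126, Het_M_119, Het_M_125, Het_M_137, KO_F_112, KO_M_118, KO_M_122 or KO_M_136. Qprt in females was called with library size only, DESeq2 and both limma fits, and Nnmt in females with DESeq2, without robust estimation and without Het_M_119.

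Changes of direction touched genes that were not called. Kynu over both sexes turned to 0.01 and 0.02 with length-scaled and scaled counts and to 0.04 with both limma fits. Cd38 in females turned to -0.00 without rounding and to -0.06 with library size only. Nnmt in males turned to 0.00 with limma on log2(TPM + 0.1). Leaving out each mouse gave -0.09 to 0.05 for Kynu, -0.15 to 0.08 for Cd38 in females, -0.50 to 0.51 for Nnmt in males, -0.02 to 0.15 for Kmo in females, -0.18 to 0.32 for Nampt in males and -0.03 to 0.46 for Tdo2 in females. Without both livers that stood apart, Kynu was 0.01, Tdo2 and Cd38 in females -0.03 and -0.04, and Nnmt in males 0.51. With library size only and limma on log2(TPM + 0.1) the median of all genes for the interaction was 0.16 and 0.15. No paired analysis was possible because mouse numbers are not shared between groups and the labels do not give the litter of each mouse. With 3 mice per group, effects within a sex were estimated with wide intervals.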
